A study of Mus musculus with 7 samples.

Results

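The dual-specificity MAP kinase phosphatases described here are 9 genes with 12 probe sets, out of 12393 named genes and 22626 probe sets on the array. Their list held 10 genes (Dusp1, Dusp3, Dusp4, Dusp6, Dusp8, Dusp10, Dusp14, Dusp16, Dusp18 and Dusp19), drawn up with the genotype differences of these hearts known, so they were selected on the KLF15-null against WT difference, and every probe set that the platform annotation gives to exactly 1 of these symbols was taken. No probe set was found for Dusp4, which was not analysed here. Cardiac RNA was hybridised to 7 Affymetrix 3' arrays, 3 from KLF15-null mice, which lack a functional gene for the zinc-finger transcription factor Krüppel-like factor 15, and 4 from wild-type (WT) mice. All mice are labelled as male, strain C57/BL6 and 3 to 4 months old, and all had been fasted for 18 h, so the effect of the fast itself cannot be read from these arrays. The labels do not say which part of the Klf15 gene was removed, or whether each array stands for 1 animal, so the tests measure the spread between these arrays.

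MAP kinases (ERK, JNK and the p38 kinases) are switched on when a kinase adds phosphate to both a threonine and a tyrosine in their activation loop, and dual-specificity phosphatases switch them off by removing both. The typical members carry a kinase-binding domain beside the catalytic domain. Dusp1 is a nuclear, rapidly induced member that acts on p38, JNK and ERK, Dusp6 is cytoplasmic and selective for ERK, and Dusp8, Dusp10 and Dusp16 prefer JNK and p38. Dusp3, Dusp14, Dusp18 and Dusp19 are small atypical members without that kinase-binding domain. In the heart MAP kinases take part in growth and stress responses, and several of the phosphatases are themselves induced by the pathway they restrain.

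The deposited log2 signals had array medians between 6.22 and 6.33. The 98th percentile lay between 11.86 and 12.02 on KLF15-null arrays and between 11.43 and 11.74 on WT arrays. The single probe set of Klf15 read 6.23 to 6.52 in KLF15-null hearts and 8.68 to 9.08 in WT hearts (limma difference -2.54, SE 0.13, adjusted p = 1.26e-06), and since the deleted part is not stated this may or may not check the genotype labels. On all 7 arrays Xist, the RNA of the inactive X chromosome in female cells, read between 8.57 and 9.94 on its brightest probe set, while 7 probe sets of 4 Y-linked genes lay at or below the 27.3th percentile of all probe sets, which goes against the label male in both genotypes. That Xist probe set read 8.57 to 9.62 in KLF15-null and 9.815 to 9.94 in WT hearts (difference -0.84, limma adjusted p = 0.00793). Another tested Xist probe set differed by -0.01 with overlapping groups. The cardiomyocyte markers were bright in both groups, with an array mean over the 8 genes of 13.59 to 13.68 in KLF15-null and 13.44 to 13.66 in WT hearts. Of 10 tested macrophage and monocyte markers 4 were higher and 2 lower (array means 8.21 to 8.61 in KLF15-null and 7.65 to 8.43 in WT). S100a8 and S100a9 were the 2 higher of 5 neutrophil markers (7.05 to 7.23 in KLF15-null and 6.17 to 6.68 in WT). The other 3 missed the threshold, with differences of -0.17 (Elane), -0.15 (Cxcr2) and -0.05 (Csf3r), and the list median was -0.05. The neutrophil list thus had no common direction. Of 7 endothelial markers 3 were lower and 0 higher (7.47 to 8.14 in KLF15-null and 8.30 to 8.60 in WT). The lower ones were Pecam1 (-2.24), Emcn (-1.44) and Tie1 (-0.77). The other 4 missed the threshold, with differences of 0.46 (Kdr), 0.20 (Egfl7), 0.02 (Tek) and -0.14 (Cdh5), and the list median was -0.14. The endothelial list thus had no common direction either. The part of a changed cell makeup in the results below was not tested, and in whole tissue fewer cells of a type and less RNA per cell cannot be told apart. Of 9 fibroblast markers 1 was higher and 2 lower (9.004 to 9.08 in KLF15-null and 8.84 to 9.66 in WT), and of 7 smooth muscle and pericyte markers 1 was higher and 1 lower (8.76 to 8.88 in KLF15-null and 8.53 to 8.95 in WT).

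Promoter sequences are shown for Dusp1, Dusp18, Dusp3 and Dusp16, whose brightest probe sets stood apart most between the genotypes among those tested, because the missing protein binds CACCC-type and GC-rich DNA. Dusp8 is added as the other gene whose promoter held a full cAMP response element. They are the 250 bases before the start site on the gene's strand, 5′ to 3′, from RefSeq on GRCm38.p6, where 8 of the 10 listed genes had an entry. Capitals mark CACCC (or GGGTG on the other strand) and TGACG (or CGTCA), the core of the cAMP response element, and run together where matches touch or overlap.
Dusp1, chr17:26508473-26508722, minus strand: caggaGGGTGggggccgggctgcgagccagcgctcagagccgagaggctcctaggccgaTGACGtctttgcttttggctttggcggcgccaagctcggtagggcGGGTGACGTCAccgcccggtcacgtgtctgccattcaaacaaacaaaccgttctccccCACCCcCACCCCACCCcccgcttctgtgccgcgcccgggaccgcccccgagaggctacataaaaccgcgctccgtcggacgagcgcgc
Dusp18, chr11:3894990-3895239, plus strand: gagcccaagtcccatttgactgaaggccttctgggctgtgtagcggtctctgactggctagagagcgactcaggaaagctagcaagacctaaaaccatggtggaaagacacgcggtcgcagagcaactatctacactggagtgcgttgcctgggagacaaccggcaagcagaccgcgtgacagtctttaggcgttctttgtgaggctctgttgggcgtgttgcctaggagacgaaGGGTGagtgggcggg
Dusp3, chr11:101984792-101985041, minus strand: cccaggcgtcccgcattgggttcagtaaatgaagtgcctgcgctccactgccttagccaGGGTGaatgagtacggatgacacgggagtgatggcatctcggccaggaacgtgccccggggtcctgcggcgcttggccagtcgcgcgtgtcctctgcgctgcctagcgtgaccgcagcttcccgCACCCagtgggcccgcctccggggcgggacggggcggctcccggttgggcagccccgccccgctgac
Dusp16, chr6:134792629-134792878, minus strand: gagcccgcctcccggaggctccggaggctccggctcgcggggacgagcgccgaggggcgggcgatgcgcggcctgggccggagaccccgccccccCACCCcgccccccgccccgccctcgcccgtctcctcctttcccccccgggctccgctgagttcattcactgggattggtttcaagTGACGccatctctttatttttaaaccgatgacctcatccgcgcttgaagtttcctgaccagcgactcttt
Dusp8, chr7:142095285-142095534, minus strand: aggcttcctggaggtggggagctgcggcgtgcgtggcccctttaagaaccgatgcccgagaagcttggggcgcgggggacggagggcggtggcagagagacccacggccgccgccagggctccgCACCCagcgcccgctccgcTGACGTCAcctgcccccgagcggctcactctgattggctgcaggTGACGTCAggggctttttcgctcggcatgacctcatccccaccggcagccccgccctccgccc

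The Dusp1 window held 5 CACCC matches, more than any other of the 8 windows, and 3 TGACG matches. A pair of its TGACG matches overlap in the full element TGACGTCA, which begins 143 bases before the start, and an E-box, CACGTG, begins 126 bases before it. The Dusp8 window held 2 full elements, beginning 107 and 63 bases before the start. Dusp18 had 1 CACCC match, 15 bases before the start. Dusp16 had 1 CACCC match and 1 TGACG match, and Dusp3 had 2 CACCC matches and 0 TGACG matches. CACCC was found in 6 of the 8 windows, TGACG in 3, TGACGTCA in 2 and CACGTG in 1. Among 32851 promoter windows of the same length in the table, 52% held CACCC, 17.8% TGACG, 1.55% TGACGTCA and 6.02% CACGTG, each counted on both strands. A match is a string of letters and says nothing about binding in these hearts.

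In KLF15-null hearts the inducible nuclear phosphatase Dusp1 and the atypical Dusp18 were lower, and Dusp3 and Dusp16 were higher on their brightest probe sets, each with all 3 KLF15-null arrays on one side of all 4 WT arrays. Dusp18 showed the widest gap. Dusp6, Dusp8, Dusp14 and the dimmer probe set of Dusp10 overlapped between the genotypes. Since the list was drawn up with these differences in view, the members' values are given as a description, with no p-value. Over all 12 member probe sets the genotypes did not overlap on 8, with 4 higher and 4 lower in KLF15-null hearts. For all 22626 probe sets on the array the same was true of 39.9%, with 20.4% higher and 19.5% lower.

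**Figure D1:**
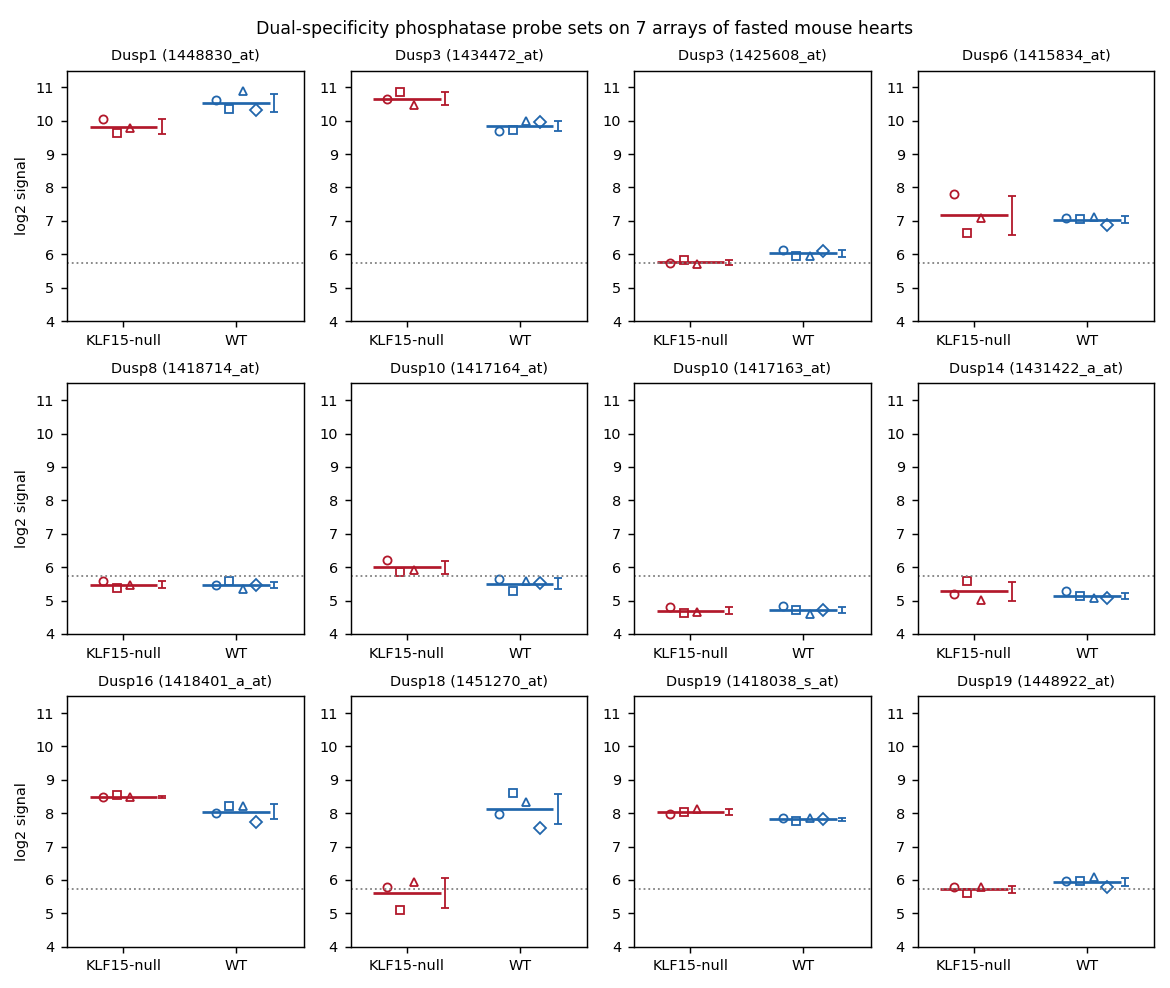
Log2 signal of the 12 member probe sets on each array, KLF15-null (red, 3 arrays) left of WT (blue, 4 arrays). Points are arrays, horizontal lines group means, bars the SD, and the dotted line is the filter level of 5.74; Dusp18 shows the widest gap between the groups, and Dusp6 the widest spread among KLF15-null arrays relative to WT.

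Of the typical, kinase-binding members, Dusp1 read 10.06, 9.63 and 9.78 on the KLF15-null arrays, against 10.61, 10.35, 10.90 and 10.32 on the WT arrays. The means were 9.82 ± 0.21 (SD, n = 3) in KLF15-null and 10.54 ± 0.27 (SD, n = 4) in WT hearts, a difference in log2 signal of -0.72 (every difference is KLF15-null minus WT), which is a 1.65-fold lower signal. The highest KLF15-null array lay 0.27 below the lowest WT array, less than the range of 0.42 among the KLF15-null arrays and of 0.58 among the WT arrays. Dusp1 was bright in every heart, so the difference is one of degree. Its size depended on how arrays were scaled, at -1.01 after quantile and -0.96 after cyclic loess normalization, and -0.63 after median centring. Without WT array 3 it was -0.60.

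Dusp16, a JNK and p38 phosphatase that shuttles between nucleus and cytoplasm, read 8.49, 8.53 and 8.48 in KLF15-null hearts, against 7.999, 8.22, 8.22 and 7.75 in WT hearts. Its difference was 0.45, from 8.50 ± 0.03 (SD, n = 3) in KLF15-null and 8.05 ± 0.22 (SD, n = 4) in WT hearts. The 3 KLF15-null arrays were nearly level, and the wider spread was among the WT arrays, the lowest being array 4.

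Dusp10, a JNK and p38 phosphatase, has 2 probe sets, and neither reached the brightness filter. The brighter, 1417164_at, read 6.22, 5.86 and 5.91 in KLF15-null hearts, against 5.65, 5.28, 5.59 and 5.51 in WT hearts, a difference of 0.49 with no overlap. Its mean over the 7 arrays, 5.72, was just below the filter level of 5.74, so it was not among the probe sets tested. The dimmer, 1417163_at, read 4.63 to 4.82 in KLF15-null and 4.59 to 4.84 in WT hearts and differed by -0.02.

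Dusp6, the ERK-selective phosphatase whose transcription is a common readout of ERK activity, read 7.80, 6.62 and 7.08 in KLF15-null hearts, against 7.08, 7.07, 7.11 and 6.88 in WT hearts. The WT arrays kept within 0.24 of each other, whereas the KLF15-null arrays spanned 1.17, lying above, below and within the WT range. Its difference of 0.13 was therefore smaller than the KLF15-null SD of 0.59, and it was 0.41 without KLF15-null array 2 and -0.18 without KLF15-null array 1. Dusp8, known mainly from brain and heart, read 5.36 to 5.57 in KLF15-null and 5.36 to 5.58 in WT hearts, below the filter level on all 7 arrays, and differed by 0.00.

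Among the atypical members Dusp18, a small phosphatase with a largely unsettled substrate range, read 5.80, 5.09 and 5.94 in KLF15-null hearts, against 7.99, 8.60, 8.34 and 7.55 in WT hearts. The means were 5.61 ± 0.46 (SD, n = 3) in KLF15-null and 8.12 ± 0.45 (SD, n = 4) in WT hearts, a difference of -2.51 or a 5.70-fold lower signal. The gap of 1.61 between the nearest arrays of the genotypes exceeded the range within either, 0.85 among KLF15-null and 1.05 among WT arrays. The KLF15-null mean lay below the filter level, which is not a detection limit, and the table holds no detection calls. This size may therefore be a lower limit, which was not tested. The probe set passed the filter through the WT arrays. With quantile, cyclic loess or median scaling, or with any single array left out, its difference was between -2.70 and -2.25.

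Dusp3, which acts on ERK and JNK, gave opposite readings on its 2 probe sets. The bright probe set, 1434472_at, read 10.66, 10.85 and 10.46 in KLF15-null hearts, against 9.69, 9.72, 9.99 and 9.95 in WT hearts, a difference of 0.82 or a 1.77-fold higher signal. The dim probe set, 1425608_at, read 5.73, 5.83 and 5.70 in KLF15-null hearts, against 6.13, 5.94, 5.94 and 6.09 in WT hearts, a difference of -0.27. Neither overlapped between the genotypes, so the direction of Dusp3 depended on the probe set. The bright one sits well above the filter level and the dim one close to it. The larger difference shrank to 0.52 after quantile and 0.59 after cyclic loess normalization.

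Dusp19, which also serves as a scaffold for the JNK pathway, likewise had probe sets of opposite sign. The brighter, 1418038_s_at, averaged 8.04 ± 0.08 (SD, n = 3) in KLF15-null and 7.82 ± 0.05 (SD, n = 4) in WT hearts, a difference of 0.21. The dimmer, 1448922_at, averaged 5.73 ± 0.10 (SD, n = 3) in KLF15-null and 5.95 ± 0.12 (SD, n = 4) in WT hearts, a difference of -0.22, and its groups were separated by only 0.0001. No direction can be given for Dusp19. Dusp14 read 5.03 to 5.58 in KLF15-null and 5.06 to 5.28 in WT hearts, below the filter level throughout, with a difference of 0.14 and overlapping groups.

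Of the 12 member probe sets 8 were bright enough to be tested, from 6 of the 9 genes, and 5 of these lay past an adjusted p of 0.05 in the limma fit over 13576 probe sets: the bright Dusp3 probe set and Dusp16 with a higher signal, and Dusp1, Dusp18 and the dim Dusp3 probe set with a lower one. Among all probe sets tested, 50.6% did, 26.8% higher and 23.8% lower in KLF15-null hearts. The list was chosen on this same difference, and Dusp18 passed the filter only through its WT arrays. These calls are therefore no test of the members, and nothing is read from their count. With arrays centred on their medians, 63.3% of the calls over all probe sets were higher, against 52.9% on the deposited scale. The dim Dusp3 probe set was no longer past the threshold after median centring and when KLF15-null array 1 or 3 or WT array 1 or 4 was left out.

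**Figure D2:**
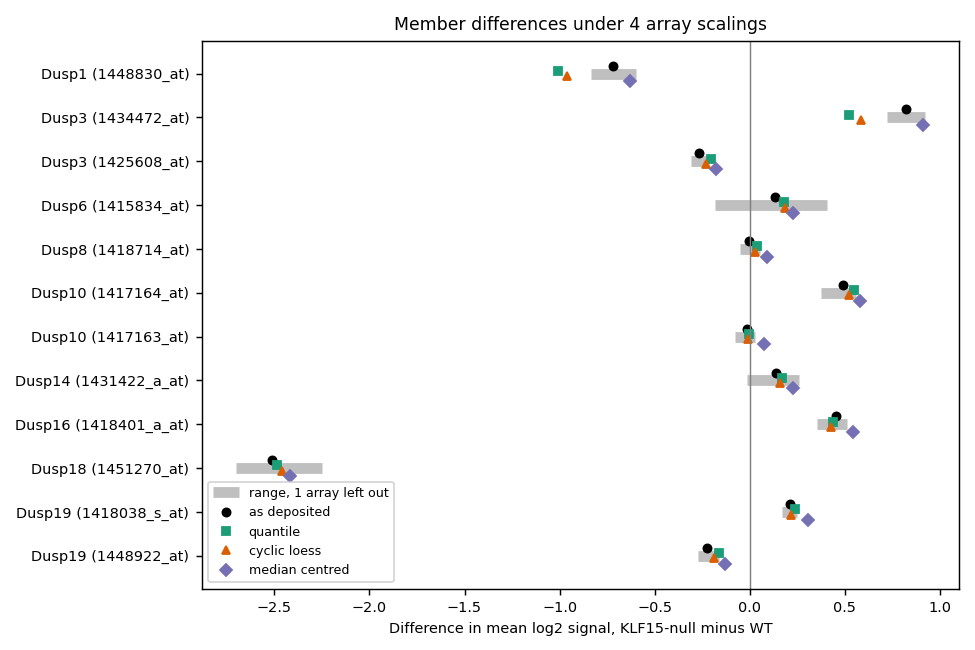
Difference in mean log2 signal (KLF15-null minus WT) for each member probe set on the deposited scale and after 3 other array scalings, with the range over fits that leave out 1 array as a grey bar. Dusp18 lies near -2.5 under every scaling, the probe sets of Dusp3 and of Dusp19 lie on opposite sides of 0, and the bar of Dusp6 crosses 0.

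The rest of the family was measured less completely. Of 19 other dual-specificity phosphatases 11 had a probe set and 5 were tested, of which 3 had a higher and 1 a lower signal in the KLF15-null group, against 27.4% and 19.6% of all 8404 genes. Styx, a catalytically inactive relative that binds ERK, read 8.51, 8.61 and 8.59 in KLF15-null hearts, against 7.54, 7.67, 7.76 and 7.4997 in WT hearts, and rose by 0.96 (SE 0.10, limma adjusted p = 4.57e-05). A second probe set of Styx rose by 0.58, while another that was tested differed by -0.17 and did not pass. Dusp7, a cytoplasmic ERK phosphatase closely related to Dusp6, read 6.65, 6.75 and 6.94 in KLF15-null hearts, against 7.48, 7.61, 7.43 and 7.54 in WT hearts, a fall of -0.73 (SE 0.10, limma adjusted p = 0.00019) on a cross-hybridizing _x_at probe set. A further Dusp7 probe set fell by 1.496. Dusp7 was thus lower on both tested probe sets, while Dusp6 itself overlapped between the genotypes. Dusp12 and Dusp22 rose by 0.37 and 0.28 (limma adjusted p = 0.00544 and 0.0357). The Dusp22 call did not hold with certain single arrays left out, namely KLF15-null array 1 or 3 or WT array 1, 2 or 3 (adjusted p 0.0523 to 0.0954).

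Other brakes on the pathway included genes of either direction. Of 18 listed phosphatases and feedback inhibitors 16 had a probe set and 12 were tested, with 4 higher, 1 lower and 7 that missed the threshold, beside 27.4% higher and 19.6% lower among all 8404 genes. Spred1, which blocks RAS-dependent activation of RAF, read 8.76, 8.88 and 8.78 in KLF15-null hearts, against 7.74, 7.93, 7.86 and 7.80 in WT hearts, and rose by 0.97 (SE 0.09, limma adjusted p = 3.29e-05). Its second tested probe set differed by 0.36 with overlapping groups and missed the threshold (limma adjusted p = 0.0606). Pebp1, a RAF kinase inhibitor protein, rose by 1.23 on an _x_at probe set and by 0.64 on another. Spry2, a receptor tyrosine kinase feedback inhibitor that ERK signalling induces, rose by 0.69 (SE 0.11, limma adjusted p = 0.000484). Its dimmer probe set, with a mean below the filter level, differed by 0.14 with overlapping groups. Spry1, a relative of Spry2, was the 1 lower gene, named after its value was seen and given on its brightest tested probe set only. It read 8.23, 7.49 and 7.32 in KLF15-null hearts, against 8.21, 8.25, 8.64 and 8.38 in WT hearts, a difference of -0.69 (limma adjusted p = 0.0193). The groups of Spry1 overlapped, and its call was lost without KLF15-null array 2 (-0.60, adjusted p = 0.0566), KLF15-null array 3 (-0.51, adjusted p = 0.0905) or WT array 3 (-0.60, adjusted p = 0.0567). Ppm1b, a serine/threonine phosphatase, rose by 0.73 on its brightest probe set (0.40 after quantile and 0.48 after cyclic loess normalization), while a second differed by 0.06 and yet another fell by 1.78.

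The kinases that the phosphatases oppose showed no common direction. Of 37 listed MAP kinases and upstream kinases 32 had a probe set and 25 were tested, with 6 higher, 6 lower and 13 that missed the threshold, a share close to the 27.4% higher and 19.6% lower of all genes tested. Their median difference was 0.01, beside 0.03 over all 8404 genes. Map3k5, the stress-activated kinase upstream of JNK and p38, fell by 1.28 (SE 0.12, limma adjusted p = 3.17e-05), reading 5.72, 5.31 and 5.61 in KLF15-null hearts, against 6.91, 7.0048, 6.81 and 6.61 in WT hearts. That may be a lower limit, since all 3 KLF15-null arrays lay below the filter level, though this level is not a detection limit. Map3k12, a JNK pathway kinase best known from neurons, rose by 1.64 (SE 0.17, limma adjusted p = 4.40e-05), with a dimmer probe set at 0.05, not past the threshold. Mapk10, the JNK isoform of heart and brain, rose by 1.74 on an _x_at probe set, and its gene-specific probe set differed by -0.02, not past the threshold. Map3k3, an activator of the ERK5 pathway, rose by 1.18 on its brightest probe set and fell by 0.48 on its dimmest. Its remaining probe set differed by -0.29 with separated groups and missed the threshold (limma adjusted p = 0.0733). The direction of Map3k3 thus depended on the probe set.

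Among direct substrates of the family, named after their values were seen, Mapk14, the p38α kinase, read 9.76, 9.67 and 10.14 in KLF15-null hearts, against 9.19, 9.35, 9.47 and 9.08 in WT hearts, and rose by 0.58 (SE 0.15, limma adjusted p = 0.00851), or by 0.38 after quantile normalization. Mapk9, a widely expressed JNK, rose by 0.34 (limma adjusted p = 0.0237), a call lost without KLF15-null array 3 (0.23, adjusted p = 0.0832), WT array 2 (0.33, adjusted p = 0.0578) or WT array 4 (0.30, adjusted p = 0.0655). Mapk8, the other widely expressed JNK, differed by 0.10 (limma adjusted p = 0.512). Mapk14, Mapk9 and Mapk8 are each given on the brightest tested probe set only, and any others were not compared. These are RNA levels and do not report phosphorylation.

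Of the 10 listed kinases that MAP kinases activate 5 had a probe set, and all 5 were tested, with 3 higher and 1 lower, beside 27.4% higher and 19.6% lower among all genes tested. Rps6ka3, an ERK-activated ribosomal S6 kinase, rose by 1.47 (SE 0.13, limma adjusted p = 2.24e-05) and by 0.72 on a second tested probe set. Mapkapk5, a substrate of p38 and of atypical MAP kinases, rose by 1.17 (SE 0.12, limma adjusted p = 5.59e-05). Mapkapk2, the main p38 effector kinase, read 9.14, 8.17 and 8.89 in KLF15-null hearts, against 9.55, 9.49, 9.80 and 9.42 in WT hearts, and fell by 0.83 (SE 0.21, limma adjusted p = 0.00864), a difference of -0.55 without KLF15-null array 2. Mknk2, which phosphorylates the cap-binding protein eIF4E, rose by 0.68 on its brightest probe set (0.27 after quantile and 0.33 after cyclic loess normalization) and fell by 1.77 on another.

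**Figure D3:**
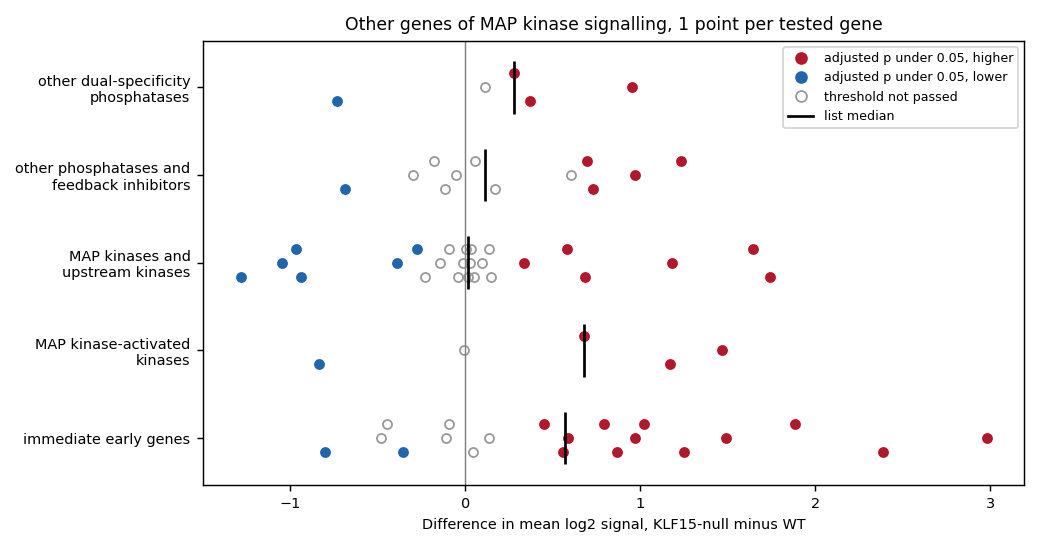
Difference in mean log2 signal (KLF15-null minus WT) of each tested gene in 5 lists of MAP kinase signalling, on the gene's brightest probe set. Filled points passed an adjusted p of 0.05 in limma, and black bars are list medians; the median of the immediate early genes is 0.57 and that of the kinases 0.01.

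Immediate early genes are a class to which Dusp1 itself belongs, and MAP kinase signalling switches many of them on within minutes. Those listed here held more higher than lower genes in KLF15-null hearts. Of 22 listed, 20 were tested, with 12 higher, 2 lower and 6 that missed the threshold, beside 27.4% higher and 19.6% lower among all 8404 genes. Their median difference was 0.57, beside 0.03 over all genes. The list was drawn up with earlier results of these hearts known. Egr1, a zinc-finger transcription factor, read 10.57, 9.37 and 10.91 in KLF15-null hearts, against 7.04, 7.53, 7.47 and 7.15 in WT hearts, and rose by 2.98 (SE 0.32, limma adjusted p = 5.22e-05). Atf3, a stress-induced transcription factor, rose by 1.89 (SE 0.25, limma adjusted p = 0.0002) and Jund, an AP-1 subunit, by 0.87 (SE 0.12, limma adjusted p = 0.000206). Ier5 rose by 1.49 on its brightest probe set and fell by 0.42 on a dimmer one.

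The 2 lower genes, named after their values were seen, were Nr4a1 and Egr3. Nr4a1, an orphan nuclear receptor, read 8.83, 9.11 and 8.78 in KLF15-null hearts, against 9.91, 9.74, 9.80 and 9.40 in WT hearts, a fall of -0.80 (SE 0.15, limma adjusted p = 0.00129). Egr3 fell by 0.36 (SE 0.09, limma adjusted p = 0.00886). Nr4a1 and Egr3 are given on their brightest tested probe sets only, and any others were not compared. Dusp1, at -0.72 and with separated groups, thus stood beside Nr4a1 and Egr3 and not beside Egr1, Atf3 and Ier5, the direction shared by the 12 higher genes. The direction of Dusp1, Nr4a1, Egr3, Egr1 and Atf3 was the same on the deposited scale and after quantile, cyclic loess and median scaling. After quantile or cyclic loess normalization 4 immediate early genes were called lower, with 13 and 12 called higher. With a replicate block 9 were higher and 3 lower, and with a filter at the 60th percentile 9 and 2. With single arrays left out the higher ones numbered 10 to 13. By complete separation of the groups 10 were higher and 3 lower. Junb and Klf6, counted among the 12 higher, did not have fully separated groups.

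**Figure D4:**
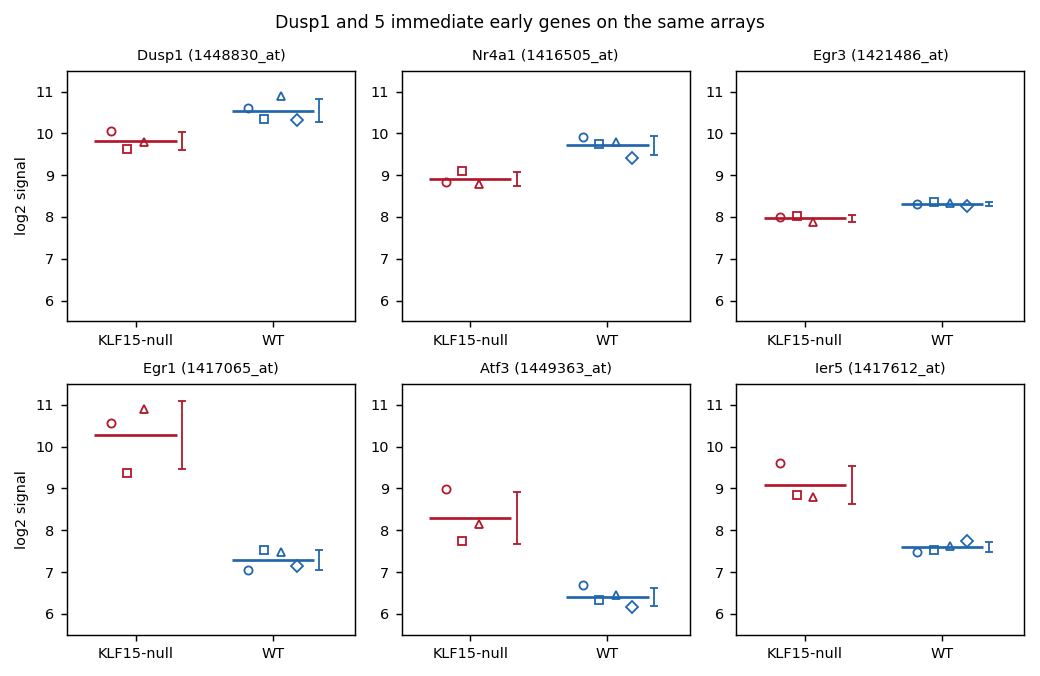
Log2 signal of Dusp1 and of 5 immediate early genes on each array, KLF15-null (red, 3 arrays) left of WT (blue, 4 arrays), with group means as lines and SD as bars. Dusp1, Nr4a1 and Egr3 were lower on all 3 KLF15-null arrays than on any WT array, and Egr1, Atf3 and Ier5 were higher.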

How the data were processed

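RNA of 7 fasted mouse hearts was measured on Affymetrix 3' arrays. The authors deposited a table of log2 signals, as judged by its values, which run between 3.20 and 14.28; biotin-labelled cRNA was made with a one-cycle kit, per the labels' protocols, and GCOS is named in the submitters' processing notes, with no role or version. How probes were summarized, scaled or filtered is not stated in the labels. On 10696 probe sets (47.3%), 5 of the members' among them, 2 or more arrays held an identical value to every digit deposited, which can make an SD too small. Array medians lay within 0.15, so values were used as deposited.

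Of 22626 probe sets 20380 had 1 symbol, 691 several and 1555 none in the platform annotation, and only those with 1 were named, with symbols checked against RefSeq (GRCm38.p6). Probe sets in the upper part of the 7-array means, from the 40th percentile (5.74 on the log2 scale), were tested, 13576 in all, by limma 3.58.1 in R 4.3.3 (KLF15-null minus WT, no covariate, empirical Bayes with intensity trend, two-sided, Benjamini-Hochberg over all 13576, threshold 0.05). A pathway or marker gene stands by its kept probe set with the highest mean. The number of arrays limits the precision. The fit was tested on simulated data. In each list up to 4 genes past the threshold with the smallest p were named, and others are said to be named after their values were seen. Members and lists were chosen with earlier results of these data known. Promoters came from RefSeq's table. Replicate numbers correlated at -0.11, 0.00 and 0.19 between the genotypes, so they were not taken as pairs.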

Additional observations from a re-analysis of the deposited data

How the results depend on the processing

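Dusp3 stood at 0.82 on its bright probe set and at -0.27 on its other one. The members were chosen on this difference, so their counts are descriptions. Member probe sets called higher numbered 2 in the fit described and 1 with a replicate block, in which Dusp16 (higher) and the dim Dusp3 probe set (lower) missed the threshold. With the block 0 other phosphatases and feedback inhibitors were lower, against 1, and Dusp22, Spry1 and Mapk9 missed the threshold, while the replicate numbers were not shown to pair the arrays. That list had 2 lower after quantile and cyclic loess normalization, without the intensity trend, with array weights and at a threshold of 0.1, and 3 without a filter and with probe sets averaged per gene. Lower immediate early genes numbered 4 after quantile and after cyclic loess normalization, against 2. Lower MAP kinase-activated kinases numbered 2 when probe sets were averaged per gene or gene-specific ones were preferred, against 1, and lower other dual-specificity phosphatases 2 without a filter, against 1. With single arrays left out, lower phosphatases and feedback inhibitors ranged from 0 to 3, member probe sets called higher from 2 to 3 and called lower from 2 to 3, and probe sets called higher over the array from 3105 to 3936 and lower from 2750 to 3433. Dusp10 on 1417164_at passed without the filter. Of the counts under the alternatives that kept all arrays 146 stayed within 1.5 times and 14 did not; the cause was not tested. A total of 3 arrays against 4, and no detection calls, limit what can be said of dim members such as Dusp8, Dusp10 and Dusp14.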

Other observations

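Among the KLF15-null hearts, array 1 gave the highest reading for Dusp1 (10.06), Dusp6 (7.80) and the brighter Dusp10 probe set (6.22), and also for Ier5 (9.60), Atf3 (8.98) and Spry1 (8.23). Array 2 gave the lowest for Dusp1 (9.63), Dusp6 (6.62), Dusp18 (5.09), Egr1 (9.37) and Atf3 (7.75). Other genes went differently. Array 2 gave the highest for the bright Dusp3 probe set (10.85), Dusp16 (8.53) and Dusp14 (5.58). The highest for Dusp18 (5.94) and Egr1 (10.91) came from array 3, so no array was high or low throughout. These are single arrays of 1 group, reported as values.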
